A study of Homo sapiens with 6 samples.

Results

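The genes described here are 44 genes of DNA replication other than the MCM helicase family. They were chosen as a list by their known function, from loading at origins to the supply of nucleotides and of chromatin for new DNA. All 44 were measured, among 19775 genes in all. Each gene is represented by 1 probe set, chosen for the highest mean signal across the 6 arrays from those annotated to that gene alone.

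Before a cell copies its DNA, the origin recognition complex (ORC) together with CDC6 and CDT1 loads the replicative helicase onto origins, a step called licensing. In S phase the kinase CDC7 with DBF4, and the factors TOPBP1, CDC45 and GINS, turn the loaded helicase into an active one, and the polymerases then copy the strands around the sliding clamp PCNA. Many of these genes are transcribed in late G1 and S phase by E2F factors, which the RB protein restrains until D-type cyclin kinases inactivate it. Growth factor signalling through PI3 kinase is one of the inputs that set cyclin D levels in breast cancer cells.

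The cell line T47D, a luminal human breast cancer line that expresses the oestrogen receptor, was grown in medium with fetal bovine serum. GDC-0941, an inhibitor of the class I PI3 kinases, was given to 3 samples for 6 hours. For the 3 controls the labels list no agent, and whether these got the solvent is not said. The dose is printed in the labels as 1 mM. A lost micro sign is possible there, and the array values cannot settle the unit. All samples come from 1 cell line, and nothing says that replicates were grown separately, so the spread behind each p-value is that between these samples and may be technical. Values are log2 signals from the RMA method, which sets the arrays to a common distribution, so each difference is relative to the rest of the array's transcripts. In bulk RNA, fewer cells in S phase and less RNA per cell cannot be told apart.

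The array medians lay between 7.34 and 7.38. The 8 luminal epithelial markers had mean levels of 11.62 to 14.34, and the 11 measured markers of basal cells, fibroblasts, leukocytes and endothelium 6.04 to 10.97. The summed signal of the latter was 12.10 to 12.17 on the log2 scale on GDC-0941 arrays and 11.86 to 11.96 on control arrays. Of these 11 only COL1A1, a collagen of fibroblasts, was called (0.56, from 10.40 in controls to 10.97 with GDC-0941). The other 10, COL1A2 (0.14) and PDGFRB (0.07) of the same fibroblast list among them, were not called, with differences of -0.17 to 0.14, of which 6 were negative. TP63 of the basal list had no probe set of its own. Of the luminal markers, KRT8 (-0.23) and KRT18 (-0.21) were called lower and PGR (0.42) and FOXA1 (0.535) higher. KRT19, EPCAM, ESR1 and GATA3 were not called. Whether these marker changes bear on the replication genes was not tested.

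Replication transcripts were lower after 6 hours of GDC-0941, with large differences between genes of the same machine. Of the 44 genes, 27 fell, 1 rose and 16 were not called, where a call is an adjusted p under 0.05 in limma over all 19775 genes. Over all genes, 15.6% were called lower and 12.1% higher. The median log2 difference of the 44 was -0.28, against -0.02 over all genes, and 12 of the 44 were lower by at least 0.5, against 2.5% of all genes. The largest falls were CDC6 (2.73-fold lower), POLE2 (2.04-fold lower), UHRF1 (1.96-fold lower), GINS2 and CDC7 (1.85-fold lower each), GINS1 (1.79-fold lower) and FEN1 (1.65-fold lower). In 29 of the 44 genes all 3 GDC-0941 arrays lay below all 3 controls, as they did in 24.0% of all genes, and in 1 gene, ORC3, all 3 lay above, as in 17.5% of all genes.

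**Figure D1:**
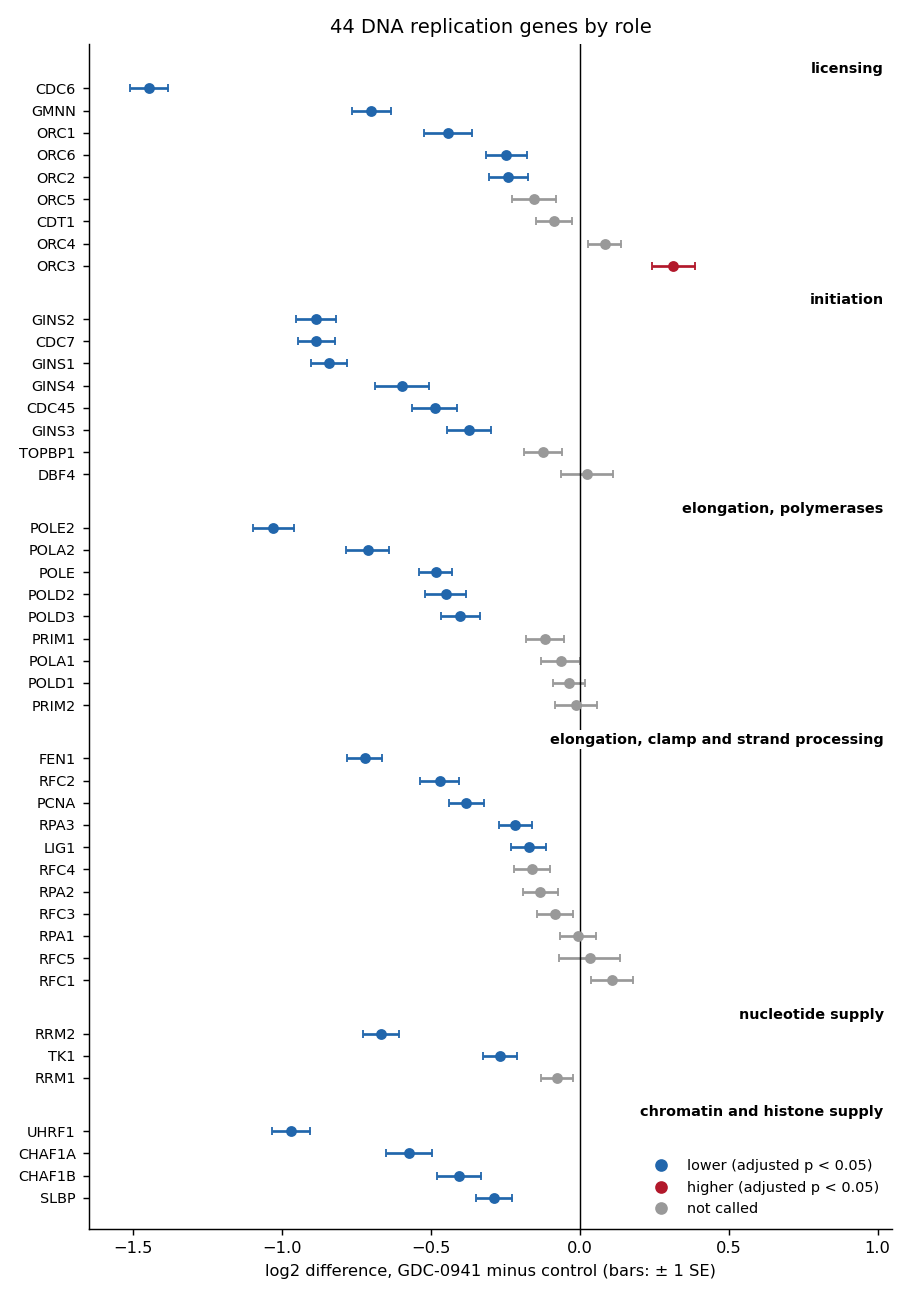
Log2 difference (GDC-0941 minus control, horizontal axis) of each of the 44 genes, grouped by role; points are the estimates from limma, bars 1 SE, and colours the call at an adjusted p of 0.05. Falls run from CDC6 at -1.45 to LIG1 at -0.17, and the 1 gene called higher is ORC3 at 0.31.

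The split depends on the reference. Every array was also centred on 18 hybridisation controls, bacterial and phage sequences added for the hybridisation. With this centring 19 of the 44 were called lower and 3 higher, against 4.53% and 28.8% of all genes. Under it the median over all genes went from -0.02 to 0.15 and that of the 44 from -0.28 to -0.11. Of the 27 falls, those that lost their call were ORC2, ORC6, GINS3, PCNA, LIG1, RPA3, TK1 and SLBP. ORC4 and RFC1 were called higher beside ORC3. The controls were read from the RMA values, after the arrays had been set to a common distribution. Centring on them therefore cannot restore a shift that RMA removed, and it moved the difference of every gene by the same amount. In that limma fit CDC6 had an adjusted p of 6.07e-37 from 6 arrays, so its calls are not on a par with those of the main fit.

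By role, the largest median fall was in initiation, where 6 of 8 genes fell and none rose (median log2 difference -0.54). The 4 genes of chromatin and histone supply all fell (median -0.49). Among the polymerases and primase 5 of 9 fell (median -0.40), and in licensing 5 of 9 fell and 1 rose (median -0.24). In nucleotide supply 2 of 3 fell (median -0.27). Clamp, clamp loader and strand-processing genes had the smallest share in this fit, 5 of 11 (median -0.16). With the polymerases they make 20 elongation genes, of which 10 fell and none rose, with a median of -0.17. Centred on hybridisation controls, the medians were -0.37 for initiation (5 of 8 lower), -0.32 for chromatin and histone supply (3 of 4), -0.23 for polymerases and primase (5 of 9), -0.10 for nucleotide supply (1 of 3), -0.07 for licensing (3 of 9 lower, 2 higher), 0.01 for clamp and strand processing (2 of 11 lower, 1 higher) and 0.003 for all elongation genes. The median of the polymerases and primase also depended on the probe sets, at -0.19 when all those of a gene were averaged. It was -0.18 when probe sets marked as matching several transcripts, or as possibly matching other sequences, came last. In each case 5 of 9 were lower. The place of polymerases and primase among the roles is therefore not fixed. The roles hold few genes and were set side by side as a description, without a test between them.

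The upstream sequence of the genes, whether called or not, was read for the letters that E2F factors are known to bind. RefSeq windows of build GRCh38.p14 were listed for 40 of the 44 genes, some with several start sites, and the 250 bases before each start were searched on both strands for TTTGGCGC, TTTGCCGC, TTTCGCGC or TTTCCCGC. A match was present for 12 of the 40 genes (30.0%), against 4.54% of the 15384 measured genes with a window, and in 13 of the genes' 52 windows, against 2.79% of all 35116 windows. It was present in 8 of the 24 genes that fell and have a window, in 3 of the 15 not called, and in ORC3, which rose. The CCAAT box, searched as CCAAT on both strands, was present for 22 of the 40 genes (55.0%), against 39.7% of measured genes. Those 22 were 15 of the 24 that fell, 6 of the 15 not called, and ORC3. The letters TTTGAA, the core of the CHR element of later cell cycle genes, were present for 1 of the 40 (RRM1), against 13.9% of measured genes. These counts describe letters in a window and do not show binding.

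The 150 bases before the start are printed for genes that changed by at least 0.3 and hold an E2F-type match there, on the strand of the gene from 5′ to 3′, with the match on either strand in capitals. CDC6 is added as the gene with the largest fall, where none of the 4 words was found, and POLA1 as the partner of POLA2 that holds a match and was not called. Only exact words were counted and marked. The CDC6 and POLA2 stretches also hold tttggcgg, unmarked, which differs from TTTGGCGC in its last letter. POLA1, not called, holds gcgggaag, which differs from GCGGGAAA, the reverse of TTTCCCGC, in its last letter. UHRF1 holds cttcccgc, which differs from TTTCCCGC in its first. Such near-words were not searched for or counted, and others may be present. The stretches are chr17:40287729-40287878 (plus strand) for CDC6, chr6:24775263-24775412 (plus) for the second of the start sites of GMNN, chr1:91500962-91501111 (plus) for the second of CDC7, chr16:85688955-85689104 (minus) for GINS2, chr11:65261812-65261961 (plus) for POLA2, chrX:24693768-24693917 (plus) for POLA1, chr12:132687343-132687492 (minus) for POLE, chr20:5126623-5126772 (minus) for the first of PCNA, chr19:4909351-4909500 (plus) for the first of UHRF1 and chr6:87589985-87590134 (plus) for ORC3.
CDC6: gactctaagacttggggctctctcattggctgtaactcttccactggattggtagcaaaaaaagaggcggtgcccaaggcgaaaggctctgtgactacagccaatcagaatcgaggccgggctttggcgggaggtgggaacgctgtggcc
GMNN: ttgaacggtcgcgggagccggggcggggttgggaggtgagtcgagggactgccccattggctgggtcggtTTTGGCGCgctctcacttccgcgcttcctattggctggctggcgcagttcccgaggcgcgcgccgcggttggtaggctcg
CDC7: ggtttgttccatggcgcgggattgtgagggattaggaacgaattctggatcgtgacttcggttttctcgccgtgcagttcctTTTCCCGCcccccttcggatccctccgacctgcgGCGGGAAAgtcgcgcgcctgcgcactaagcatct
GINS2: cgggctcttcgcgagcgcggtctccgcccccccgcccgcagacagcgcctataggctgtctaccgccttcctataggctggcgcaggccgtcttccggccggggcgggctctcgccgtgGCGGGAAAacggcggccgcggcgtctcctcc
POLA2: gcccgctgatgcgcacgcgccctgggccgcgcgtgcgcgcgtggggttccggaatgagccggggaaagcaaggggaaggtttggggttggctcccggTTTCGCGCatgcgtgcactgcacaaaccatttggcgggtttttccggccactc
POLA1: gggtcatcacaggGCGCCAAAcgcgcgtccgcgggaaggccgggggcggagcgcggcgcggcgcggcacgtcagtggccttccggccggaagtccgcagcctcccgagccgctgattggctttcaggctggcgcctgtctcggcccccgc
POLE: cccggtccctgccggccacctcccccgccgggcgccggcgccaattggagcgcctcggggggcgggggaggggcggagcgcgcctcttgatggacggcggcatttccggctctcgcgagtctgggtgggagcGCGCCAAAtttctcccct
PCNA: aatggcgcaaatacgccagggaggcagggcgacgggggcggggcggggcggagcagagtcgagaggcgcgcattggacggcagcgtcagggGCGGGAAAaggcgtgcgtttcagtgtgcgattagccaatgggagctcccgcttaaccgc
UHRF1: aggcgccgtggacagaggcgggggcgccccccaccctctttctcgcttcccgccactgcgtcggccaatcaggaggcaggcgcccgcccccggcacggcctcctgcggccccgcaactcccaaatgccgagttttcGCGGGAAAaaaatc
ORC3: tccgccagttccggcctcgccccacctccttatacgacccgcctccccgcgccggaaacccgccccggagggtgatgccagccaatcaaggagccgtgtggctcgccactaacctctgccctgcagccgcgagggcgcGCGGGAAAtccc
In CDC7 the word occurs on both strands within 68 bases of the start, and in GINS2, POLE, UHRF1 and ORC3 the match begins within 31 bases of it. ORC3, which rose, and UHRF1, which fell, carry the same word, TTTCCCGC, near the start. That word was also found upstream of CDC7, GINS2, PCNA and LIG1, called lower, and of RFC3 and CDT1, not called. Whether the word bears on the direction of change was not tested.

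Licensing was dominated by CDC6, the ATPase that brings the helicase to ORC. Its signal was 8.66, 8.49 and 8.47 on the GDC-0941 arrays and 9.99, 9.94 and 10.03 on the controls, a log2 difference of -1.45 ± 0.06 (SE, adjusted p = 1.31e-07 in limma), the 4th largest fall of all genes. The groups were more than a full log2 unit apart, and the second probe set of CDC6 differed by -1.33. GMNN (geminin), which binds CDT1 and blocks relicensing, had 10.54, 10.36 and 10.44 against 11.15, 11.07 and 11.22, a difference of -0.70 ± 0.07 (SE, adjusted p = 1.51e-05). All its GDC-0941 arrays lay below the controls. CDT1 itself had 10.30, 10.36 and 10.31 against 10.51, 10.35 and 10.38, a difference of -0.09 ± 0.06 (SE, adjusted p = 0.357), with groups that overlap. Its other probe set, at a mean level of 9.23, was called lower (-0.35), so its call, though not its sign, depends on the probe set read.

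The 6 ORC subunits did not move together. ORC1, the subunit that is degraded and made anew in each cell cycle, fell (-0.44 ± 0.08 SE, adjusted p = 0.0015), from a control mean of 7.02 ± 0.07 to 6.58 ± 0.17 (SD, n = 3 each). ORC2 and ORC6 fell less (-0.24 and -0.25). The other probe set of ORC2, at a mean level of 7.55, differed by -0.15 and was not called over probe sets, and ORC6 has a single probe set. The call of ORC2 was lost without GDC-0941 replicate 2 or 3 or control replicate 2 or 3 (adjusted p 0.0505 to 0.0646), and that of ORC6 without GDC-0941 replicate 3 or control replicate 1 (adjusted p 0.0879 and 0.079). ORC3, a core subunit, was the 1 gene of the 44 to rise, with 9.30, 9.12 and 9.25 against 8.89, 8.80 and 9.03, a difference of 0.31 ± 0.07 (SE, adjusted p = 0.00638). Its lowest GDC-0941 array stood above its highest control. ORC4 had 10.00, 9.93 and 9.98 against 9.86, 9.86 and 9.94, with overlapping groups and a difference of 0.08 (95% interval -0.04 to 0.21), and ORC5 differed by -0.15 (-0.31 to 0.01). Between ORC1 and ORC3 the differences spanned 0.76 on the log2 scale.

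In initiation, all 4 subunits of GINS, the ring that joins CDC45 on the active helicase, fell. GINS2 had 11.22, 11.01 and 11.06 with GDC-0941 and 11.96, 11.93 and 12.05 in controls, a difference of -0.89 ± 0.07 (SE, adjusted p = 3.78e-06). Of its other probe sets, the one at a mean level of 8.75 differed by -0.22 and was not called over probe sets, and the one at 7.19 differed by -0.95. GINS1 had 10.50, 10.34 and 10.40 against 11.24, 11.24 and 11.28 (-0.84 ± 0.06 SE, adjusted p = 2.31e-06). In both genes every treated array lay well below the controls. GINS4 had 8.67, 8.41 and 8.84 against 9.25, 9.26 and 9.20 (-0.60 ± 0.09 SE, adjusted p = 0.000407), with a wider spread among treated arrays. Its other probe sets differed by -0.20, -0.43 and -0.08, the last not called, and the average of all was -0.33. GINS3 fell by 0.37. CDC45 itself fell by 0.49 ± 0.08 (SE, adjusted p = 0.000512).

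The 2 subunits of the initiating kinase differed. CDC7, the catalytic subunit, had 7.71, 7.57 and 7.74 against 8.58, 8.51 and 8.58, a difference of -0.88 ± 0.06 (SE, adjusted p = 2.19e-06). DBF4, its activating subunit, had 10.39, 10.02 and 10.20 against 10.17, 10.26 and 10.10, a difference of 0.02 ± 0.09 (SE, adjusted p = 0.881; 95% interval -0.16 to 0.21). The treated arrays of DBF4 lay on both sides of the controls, while those of CDC7 were all below. TOPBP1, a scaffold for loading CDC45, differed by -0.12 (adjusted p = 0.177), and was called lower without GDC-0941 replicate 1 (-0.18, adjusted p = 0.0364).

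**Figure D2:**
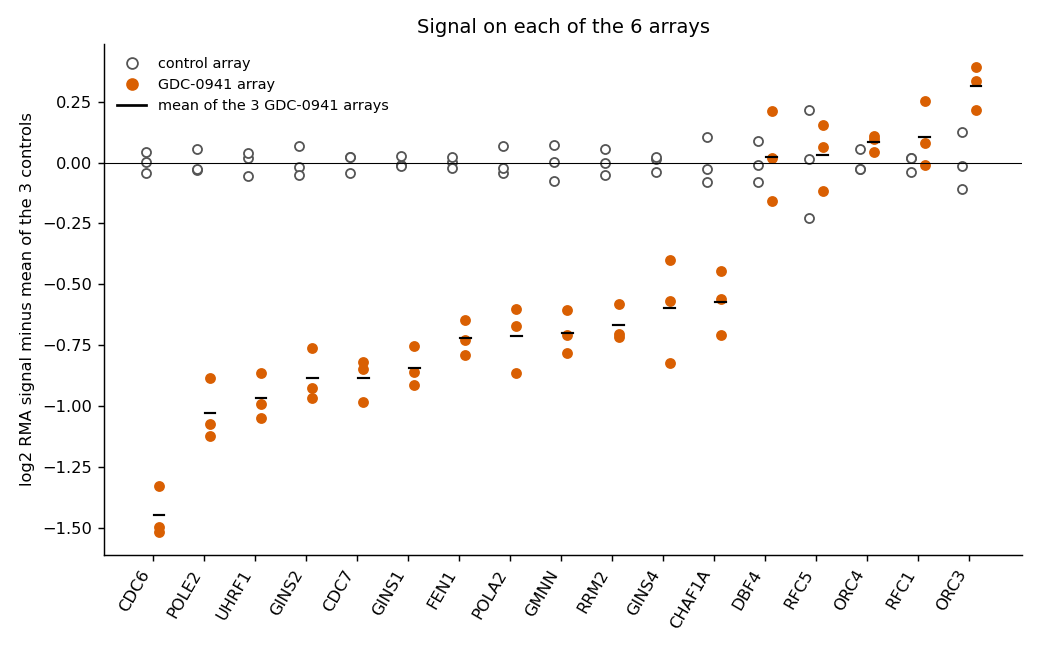
Log2 RMA signal on each of the 6 arrays, minus the mean of the gene's 3 controls (vertical axis), for the 12 genes lower by at least 0.5 and the 5 with a sign opposite to most genes of their role. Filled points are GDC-0941 arrays, open points controls and bars the mean of the GDC-0941 arrays; filled and open points do not meet for the 12 falling genes and for ORC3, and overlap for DBF4, RFC5, ORC4 and RFC1.

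Among the polymerase and primase genes, POLE2 and POLA2 fell most by their chosen probe sets. POLE2, the B subunit of the leading-strand polymerase epsilon, had 9.52, 9.33 and 9.28 against 10.38, 10.38 and 10.46, a difference of -1.03 ± 0.07 (SE, adjusted p = 1.79e-06). POLE, the catalytic subunit of that enzyme, fell by 0.48 ± 0.05 (SE, adjusted p = 5.86e-05). POLA2, the B subunit of polymerase alpha, which starts each new strand with primase, had 9.50, 9.30 and 9.57 against 10.24, 10.13 and 10.14, a difference of -0.71 ± 0.07 (SE, adjusted p = 2.72e-05). Its treated arrays all lay below the controls, but its other probe sets, at mean levels of 8.22 and 7.26, differed by -0.18 and -0.11 and were not called. The average of the 3 was -0.33. The catalytic subunit POLA1 differed by -0.06 (95% interval -0.21 to 0.08), and the primase subunits PRIM1 and PRIM2 by -0.12 (-0.26 to 0.03) and -0.01 (-0.16 to 0.14). In polymerase delta, the lagging-strand enzyme, POLD2 and POLD3 fell by 0.45 and 0.40, while the catalytic POLD1 differed by -0.04 (-0.16 to 0.08). The other probe set of POLD3, at a mean level of 6.93, differed by 0.02 and was not called, and the average of both was -0.19.

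Of the genes that act behind the polymerases, FEN1, the nuclease that trims Okazaki fragment flaps, fell most. It had 11.04, 10.90 and 10.96 against 11.69, 11.66 and 11.71, a difference of -0.72 ± 0.06 (SE, adjusted p = 5.83e-06), and its second probe set differed by -0.80. PCNA, the clamp, fell by 0.38 ± 0.06 (SE, adjusted p = 0.000539), from a control mean of 12.70 ± 0.08 to 12.32 ± 0.04 (SD, n = 3 each). LIG1, the ligase that joins the fragments, fell by 0.17 at an adjusted p of 0.0456. That call was lost when any single array was left out (adjusted p 0.0504 to 0.128) and with the replicate block (0.0707).

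In the clamp loader RFC, 1 of 5 chosen probe sets was called. RFC2 fell by 0.47 ± 0.07 (SE, adjusted p = 0.000247), and its second probe set differed by -0.49. RFC5 had 11.12, 10.86 and 11.03 against 10.74, 10.98 and 11.19, a difference of 0.03 ± 0.10 (SE, adjusted p = 0.865) with overlapping groups. Its other probe sets, at mean levels of 10.28 and 9.97, were both called lower (-0.57 and -0.60, adjusted p = 0.00036 and 0.000194 over probe sets), so the value of RFC5 turns on which probe set is read. RFC1, the large subunit, had 9.91, 9.65 and 9.74 against 9.62, 9.68 and 9.68, a difference of 0.11 ± 0.07 (SE, adjusted p = 0.315). RFC3 and RFC4 differed by -0.08 and -0.16 without a call, and RFC4 was called lower without GDC-0941 replicate 1 (-0.20, adjusted p = 0.03). The trimer RPA, which coats single-stranded DNA, had small differences. RPA3 fell by 0.22, RPA2 differed by -0.13 (adjusted p = 0.129), and RPA1 by -0.01 (95% interval -0.14 to 0.13).

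In nucleotide supply, RRM2, the small and cell cycle-regulated subunit of ribonucleotide reductase, had 11.26, 11.12 and 11.13 against 11.79, 11.84 and 11.89, a difference of -0.67 ± 0.06 (SE, adjusted p = 1.35e-05). RRM1, the large subunit, differed by -0.08 (95% interval -0.20 to 0.04). TK1, the thymidine kinase of S phase, fell by 0.27 ± 0.06 (SE, adjusted p = 0.00413), and both of its probe sets were called lower. The reductase's subunits thus had different values, with RRM2 below its controls on every treated array.

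All 4 genes of chromatin and histone supply fell. UHRF1, which recruits the maintenance DNA methyltransferase to new DNA, had 9.88, 9.70 and 9.75 against 10.69, 10.77 and 10.78, a difference of -0.97 ± 0.06 (SE, adjusted p = 1.45e-06). CHAF1A, the large subunit of the histone chaperone CAF-1, had 8.15, 7.89 and 8.04 against 8.52, 8.57 and 8.71, a difference of -0.57 ± 0.08 (SE, adjusted p = 0.000168). Treated and control arrays did not overlap in either gene. CHAF1A was called lower on 3 of its 4 probe sets, and the fourth, at a mean level of 6.40, differed by -0.001. CHAF1B fell by 0.40, and SLBP, which binds the stem-loop of histone messages, by 0.29.

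Partners within a complex were compared as the log2 ratio of their signals on each array, which cancels whatever an array shares. The change in the ratio of CDC7 to DBF4 was -0.91 ± 0.10 (SE, n = 3 arrays each), with no overlap between groups. The ratio changed by -0.65 ± 0.07 for POLA2 to POLA1, by -0.61 ± 0.09 for GMNN to CDT1, by -0.59 ± 0.03 for RRM2 to RRM1 and by -0.55 ± 0.06 for POLE2 to POLE, also without overlap. For CHAF1A to CHAF1B it was smaller (-0.17 ± 0.05), and for PRIM1 to PRIM2 (-0.10 ± 0.07) the groups overlapped. These 7 ratios were chosen after the values were seen and are given without a test. They show unequal change, not which partner moved, and some depend on the probe sets. With all probe sets of a gene averaged, the ratio changed by -0.27 ± 0.06 for POLA2 to POLA1, by -0.48 ± 0.07 for GMNN to CDT1 and by 0.08 ± 0.06, with overlapping groups, for CHAF1A to CHAF1B. With unmarked probe sets first, POLA2 to POLA1 changed by -0.11 ± 0.07, with overlapping groups, and CHAF1A to CHAF1B turned to 0.40 ± 0.07, with no overlap. For RRM2 to RRM1 the change was -0.62 ± 0.02 with all probe sets averaged and -0.55 ± 0.05 with unmarked ones first, with no overlap. CDC7, DBF4, POLE2 and POLE have 1 probe set each, so these choices could not alter their ratios.

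**Figure D3:**
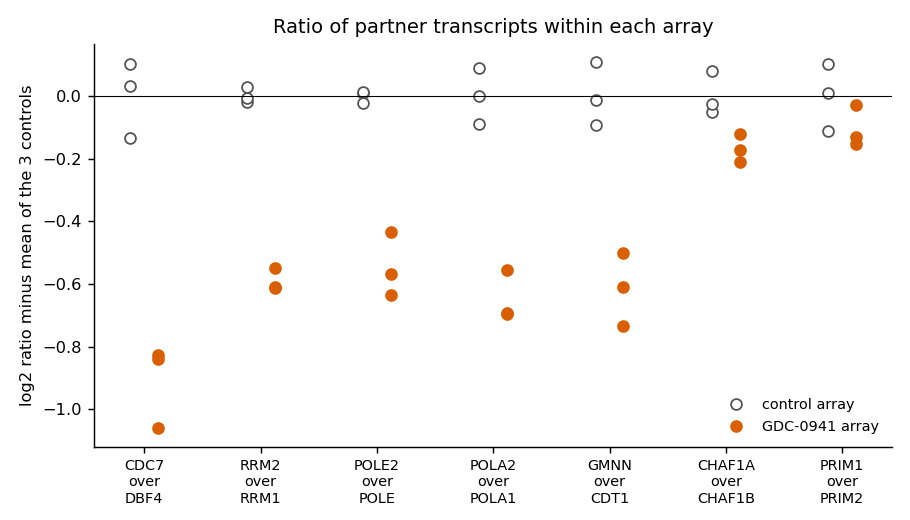
Log2 ratio of partner transcripts within each array, minus the mean of the 3 controls (vertical axis), for 7 ratios (horizontal axis), read from the chosen probe sets; filled points are GDC-0941 arrays and open points controls. Filled points lie below the open ones for the first 6 ratios and overlap them for PRIM1 over PRIM2; with other probe sets POLA2 over POLA1 is nearer 0 and CHAF1A over CHAF1B changes sign.

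The choice of probe set was checked on every probe set annotated to these genes alone. Of 75 such probe sets, 40 were called lower and 1 higher in a fit over all 54613 probe sets, in which 9.89% were lower and 8.88% higher. No gene had probe sets called in opposite directions, but the only probe set called higher was that of ORC3, which has no other. Of the 20 genes with several probe sets, 12 were called, and 9 of these had a second probe set called lower as well. CDT1 and RFC5 were the genes without a call whose other probe sets were lower.

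**Figure D4:**
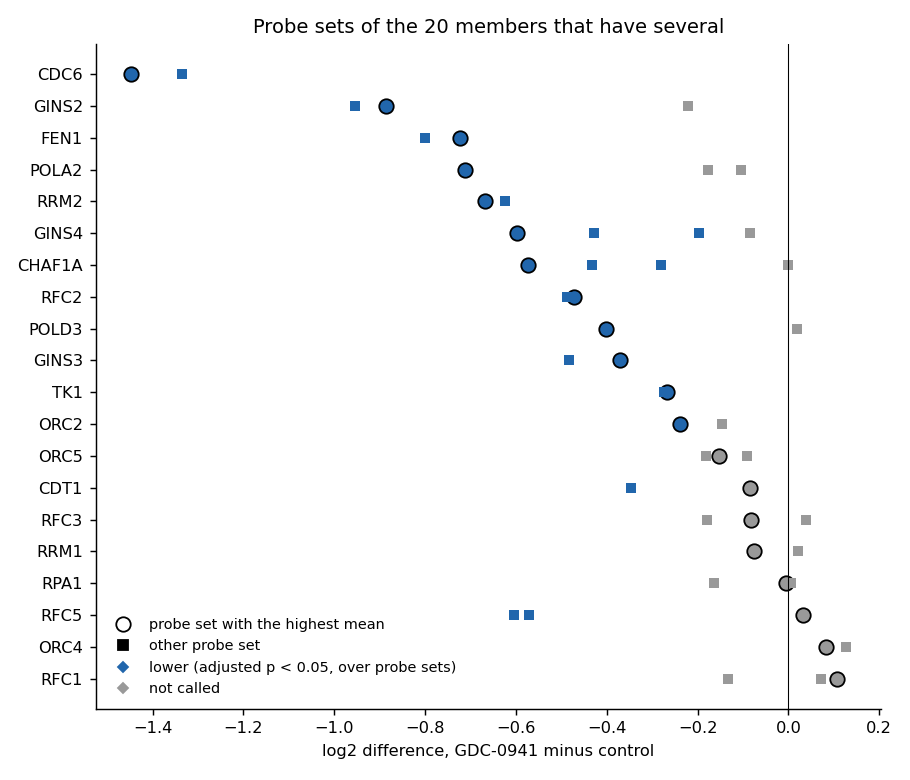
Log2 difference (GDC-0941 minus control, horizontal axis) of every probe set of the 20 genes that have several; circles are the probe sets with the highest mean, squares the others, and blue marks an adjusted p under 0.05 over all probe sets. The squares of RFC5 at -0.57 and -0.60 stand apart from its circle at 0.03, and the circle and square of CDC6 lie together.

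The treated arrays also differed among themselves. GDC-0941 replicate 1 was the highest of the 3 treated arrays in 37 of the 44 genes, against 43.8% of all genes, and replicate 2 the lowest in 35, against 45.8% of all genes. The count of genes called lower was 28 without GDC-0941 replicate 1, 25 without replicate 2 and 24 without replicate 3. It was 25 without each of the controls in turn. Of all 19775 genes, 3192, 2554 and 2528 were called lower without GDC-0941 replicates 1, 2 and 3. Without control replicates 1, 2 and 3 the counts over all genes were 2682, 2529 and 2475, against 3090 with all arrays.

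Of 37 measured genes of the same process outside the list, 17 fell, 3 rose and 17 were not called, with a median of -0.16 (7 fell when arrays were centred on hybridisation controls). Those that fell were 45.9% and those that rose 8.1%, against 15.6% and 12.1% of all genes. Centred on hybridisation controls, 4.53% of all genes fell. The largest falls were DTL (-0.82), which marks CDT1 for destruction, WDHD1 (-0.73), which ties polymerase alpha to the helicase, TIPIN (-0.62), a fork protection factor, DONSON (-0.55), which helps form the active helicase, and DNMT1 (-0.51), the maintenance DNA methyltransferase. The 3 that rose were RRM2B (0.55), the p53-inducible partner of RRM1, TOP2A (0.39), the topoisomerase of mitotic chromosomes, and DCK (0.36), which salvages deoxycytidine. RRM2B and RRM2, alternative small subunits of the same reductase, thus changed in opposite directions: RRM2B had 9.92, 9.82 and 9.85 against 9.30, 9.34 and 9.30, with no overlap (0.55 ± 0.06 SE, adjusted p = 2.73e-05). In the MCM family 9 of 10 fell, with a median of -0.64, against -0.28 in the 44 genes. No test was made of that difference.

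**Figure D5:**
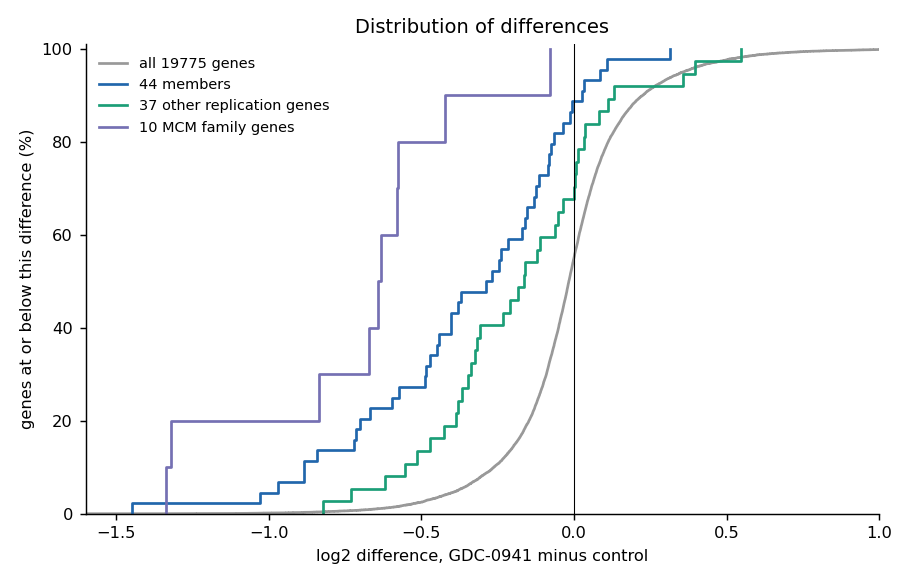
Percentage of genes (vertical axis) at or below each log2 difference, GDC-0941 minus control (horizontal axis), for all 19775 genes, the 44 replication genes, 37 other replication genes and 10 MCM family genes. The curves reach 50% near -0.02 for all genes, -0.28 for the 44, -0.16 for the other replication genes and -0.64 for the MCM family.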

How the data were processed

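RNA of 6 samples, 3 treated and 3 control, was measured on arrays of 54675 probe sets from 6 ug of RNA. The deposited values are log2 signals, 1 column per array. RMA is named in the submitters' processing notes; its version and the chip definition were not given in the sources used here. The values (3.00 to 14.81) show the log2 scale. RMA sets arrays to one distribution, which hides a shift common to most transcripts.

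The platform annotation names 1 gene for 41091 of 54613 probe sets (62 controls left out), several for 1801 and none for 11721. Symbols were updated by Entrez identifier for 41037 with RefSeq (GRCh38.p14). No filter on level was used. The comparison used limma 3.58.1 under R 4.3.3 (lmFit, eBayes, two-sided, Benjamini-Hochberg over all genes), tested on simulated data, and every adjusted p is from that fit unless named otherwise. The median standard error was 0.0641, and 3 arrays per group limit the precision.

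The members, roles, lists and alternatives were chosen with earlier results of these data known. All 44 members are given, with every array for those that differ by at least 0.5 or run against their role. Other replication genes are named if among the 5 largest falls or 3 largest rises called. Replicate numbers are not said to pair samples, and same-numbered arrays did not deviate together (r = -0.35, 0.19 and -0.02 across genes). Between treated and control arrays of different numbers, r ran from -0.41 to 0.39. Alternatives were a replicate block, each array left out, other normalizations, variance models, array weights, a level filter, other probe set rules and an adjusted p of 0.01.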

Additional observations from a re-analysis of the deposited data

How the results depend on the processing

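Of the 28 calls among the 44 genes, 19 held in every one of 15 alternative fits that included the gene, and 25 held whichever array was left out. The count of the 44 called lower ran from 19, centred on hybridisation controls, to 33, with array weights. It was 24 to 28 with 1 array left out, 26 with the replicate block and 23 at an adjusted p under 0.01. The count over all genes moved too, from 895 to 5176 in the same 2 fits, against 3090 in the main fit. Over all genes it was 2475 to 3192 with 1 array left out and 2084 at an adjusted p under 0.01. The median of the 44 kept its sign in all alternatives. With the replicate block, 16 other replication genes, 2781 of all genes lower and 2151 higher were called, and of the 44 genes LIG1 alone changed its call. Centring on hybridisation controls gave a median of -0.11 for the 44 genes and 3 called higher, 7 other replication genes lower, and 895 lower and 5688 higher over all genes. Array weights, whose estimate stopped before its tolerance, gave 2 of the 44 higher (ORC3 and ORC4), 5176 lower and 4235 higher over all genes. With all probe sets of a gene averaged, RFC5 was called lower (-0.38, adjusted p = 0.00332), the opposite sign to its chosen probe set, and CDT1 was called lower (-0.22). With unmarked probe sets first, CHAF1A differed by -0.001 and lost its call, and GINS2 (-0.22) and POLA2 (-0.18) kept theirs at smaller values. The filter on level removed ORC1 and CDC7. Sign changes of genes not called in either fit are not counted as reversals. The cause of these shifts was not tested.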
